A study of Mus musculus with 6 samples.

Results

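Myc is the transcription factor that T cells switch on after antigen receptor signaling to support growth, and many genes for building ribosomes are among its known targets. The genes described here are Myc and 36 genes of ribosome biogenesis, polyamine synthesis and pyrimidine synthesis, 37 in all of 12925 genes tested. They were chosen by name, and each of the 37 is listed in the deposited gene-level table. The RNA came from naïve CD4+ T cells of C57BL/6 mice (labelled as spleen, while the isolation methods name lymph nodes as well), cultured for 48 h under Th9 conditions, with 3 WT and 3 Cul5 cKO (Cul5fl/flCD4-Cre) samples. Cells of both genotypes were stimulated through CD3 and CD28 (antibodies at 2 and 1 µg/ml), with IL-4 at 20 ng/ml, TGF-β at 2.5 ng/ml and a blocking antibody to IFN-γ at 10 µg/ml. Mice for Th9 cultures were 8 to 10 weeks old. Littermates with floxed Cul5 and no CD4-Cre were the usual WT mice. CD4-Cre acts from a thymic stage onward, so the gene was already lost in the naïve cells before culture, and in this line CD8+ T cells lose it as well. The sources used here do not tie a sample to a mouse, so p-values measure the spread between these samples.

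Ribosomes are assembled in the nucleolus. RNA polymerase I transcribes the ribosomal RNA precursor, snoRNPs (small RNA-protein particles) guide its chemical modification, and large sets of assembly factors cut and fold it into the small and the large subunit. Myc pairs with the protein Max to bind the E-box CACGTG in the promoters of such genes, and it also drives the enzymes that supply polyamines and nucleotides.

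Levels are given as CPM, the TMM-scaled share of a library's counts that a gene took, which compare one gene between samples. Differences are log2 fold changes of Cul5 cKO over WT with their standard error (SE), and a gene was called where the adjusted p of edgeR's quasi-likelihood test, corrected over the 12925 genes, was under 0.05. WT replicate 3 held 3944803 estimated counts and the other 5 samples between 23111689 and 23454552. Cul5 itself had 64.4, 69.3 and 65.0 CPM in WT and 10.6, 14.2 and 13.1 CPM in Cul5 cKO, a log2 fold change of -2.39 ± 0.11 (SE, edgeR adjusted p = 0.00099), so each library matched its label. The 8 CD4 T cell markers summed to between 1950 and 2026 CPM in WT and between 1922 and 1948 CPM in Cul5 cKO. B cell markers (6 genes) summed to between 82.0 and 113 CPM in WT and between 35.5 and 121 CPM in Cul5 cKO, most of it Ighm. Myeloid markers (7 genes) summed to at most 8.44 CPM except in Cul5 cKO replicate 2, at 53.02 CPM, CD8 T and NK cell markers (6 genes) to at most 22.3 CPM and erythroid markers (6 genes) to at most 2.67 CPM, with Ncr1 at 0 in each sample. The part of such cells in the values below was not tested. In bulk RNA, fewer cells of a type and less RNA per cell cannot be told apart, and CPM do not measure total RNA per cell.

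Each of the 37 genes had a higher fitted level in Cul5 cKO than in WT, but none was called. The log2 fold changes ran from 0.10 for Polr1c to 0.54 for Srm, with a median of 0.28. Over all genes tested, the median was -0.01 and 48.8% were higher in Cul5 cKO. The called share was 0 of 37 in edgeR's quasi-likelihood test against 1.03% of all genes, the lowest adjusted p being 0.070 for Rrs1 and 0.086 for Odc1. DESeq2 called 7 of the 37, all higher, where it called 2.79% of all genes as higher. At an unadjusted p under 0.05, 18 of the 37 were higher and 0 lower, where 10.9% of all genes were higher and 10.4% lower. CPM of the groups did not overlap for 15 of the 37, all higher in Cul5 cKO, against 14% of all genes higher without overlap.

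**Figure D1:**
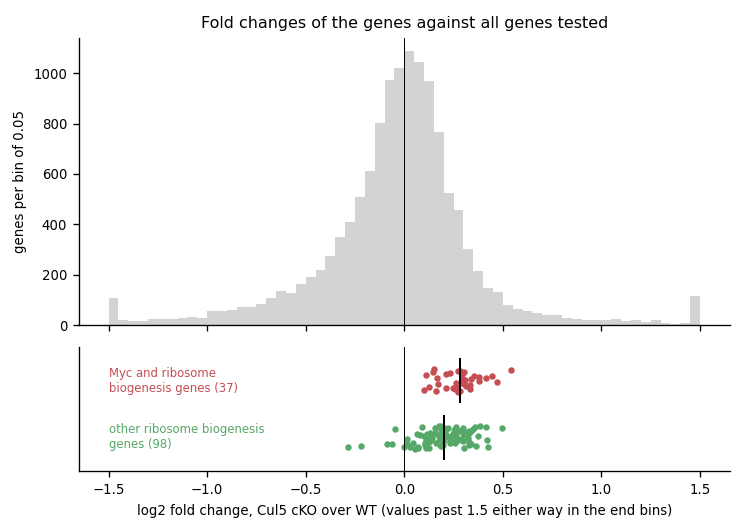
Log2 fold changes of Cul5 cKO over WT: the histogram (upper panel, number of genes per bin of 0.05) holds all 12925 genes tested, and each point below is 1 gene, with a line at the median. The 37 genes lie between 0.10 and 0.54 (median 0.28), and 92 of the 98 other ribosome biogenesis genes lie above 0 (median 0.20).

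The 37 genes together took 0.962%, 1.13% and 1.04% of the normalized counts in WT replicates 1, 2 and 3, and 1.10%, 1.25% and 1.38% in Cul5 cKO replicates 1, 2 and 3. Thus the Cul5 cKO sample with the lowest share lay between the WT samples, and the other two Cul5 cKO samples lay above all of WT. Gene by gene, the place of Cul5 cKO replicate 1 against WT varied, and for 15 of 37 genes it lay above all WT samples. The order within each genotype was more alike. Replicate 1 was the lowest Cul5 cKO sample for 37 of 37 genes, as it was for 37% of all genes, and the lowest WT sample for 30 of 37 (39.8% of all genes). It was the lowest of both genotypes for 30 of 37 (22.1% of all genes). Cul5 cKO replicate 3 was the highest Cul5 cKO sample for 35 of 37 (30.8% of all genes), and these 35 genes had their highest level of all 6 samples there.

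**Figure D2:**
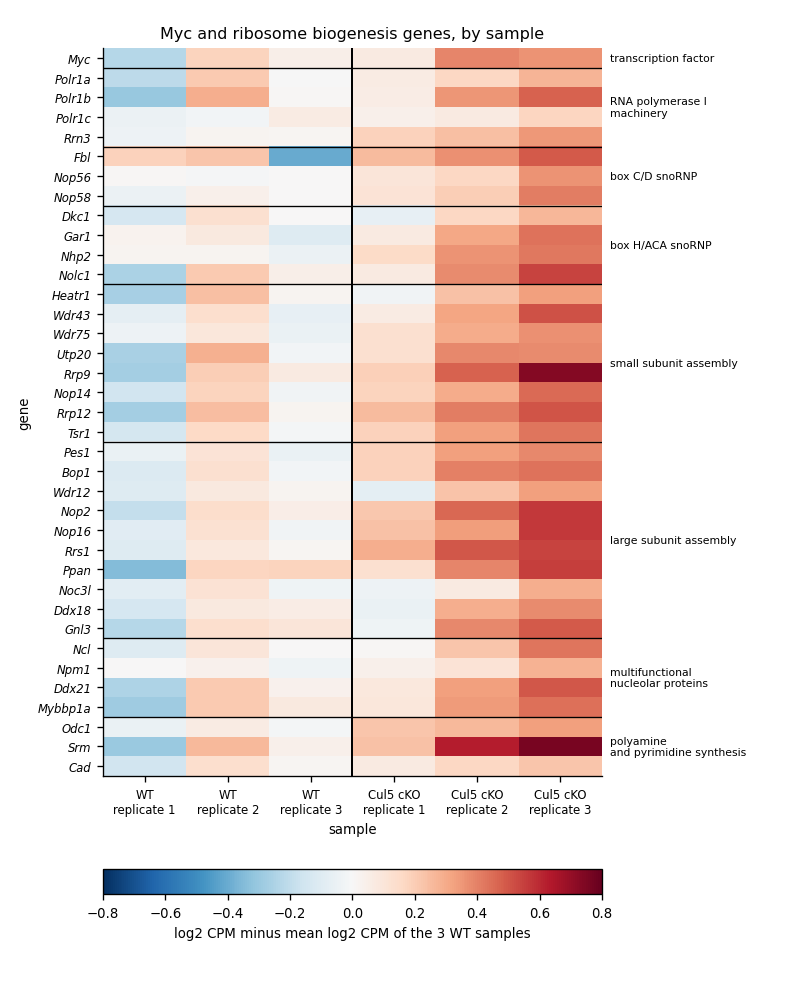
Log2 CPM of the 37 genes (rows, grouped by role) in the 6 samples (columns), as the difference from the mean log2 CPM of the 3 WT samples; red is higher and blue lower. The median difference over the 37 genes was -0.13, 0.13 and 0.01 in WT replicates 1, 2 and 3 and 0.09, 0.33 and 0.43 in Cul5 cKO replicates 1, 2 and 3.

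The spread that replicate 1 adds within each genotype bears on the tests. In replicates 2 and 3 alone, with 2 samples a group, edgeR called 10 of the 37 genes as higher and 0 as lower, against 4.38% of all genes called as higher and 4.45% as lower. These were Rrn3, Nhp2, Rrp9, Pes1, Bop1, Nop2, Rrs1, Ddx18, Gnl3 and Srm. Groups of these samples did not overlap for 34 of 37 genes, higher in Cul5 cKO, against 32.1% of all genes. Replicate 1 was the lowest Cul5 cKO sample for 37 of 37 genes, so leaving it out could only add to this count. The count is therefore no separate support for a difference. Replicate 1 was set apart with earlier results of these data known. The calls made without it, or with a term for it, are therefore no separate support either. With all 6 samples and a term for replicate 1 against the others, 20 of 37 were called as higher and 0 as lower, against 7.17% and 5.89% of all genes. The median log2 fold change was 0.29 in replicates 2 and 3 alone and 0.28 with the term, so the number of calls moved more than the size of the differences. The labels do not say what replicate 1 shares, and the study describes the RNA samples as belonging to a single experiment.

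Single samples weighed on the size as well. Leaving out 1 sample at a time moved the log2 fold change by over 1.5 times for 23 of the 37 genes, with no change of sign. Of these 23, the lowest value came without WT replicate 1 for 12 genes, without Cul5 cKO replicate 3 for 10 and without WT replicate 3 for Fbl. The highest came without Cul5 cKO replicate 1 for 13 and without WT replicate 2 for 10. The genes called in replicates 2 and 3 alone were among the 14 steadier ones except Ddx18 (0.13 to 0.34) and Gnl3 (0.19 to 0.44).

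**Figure D3:**
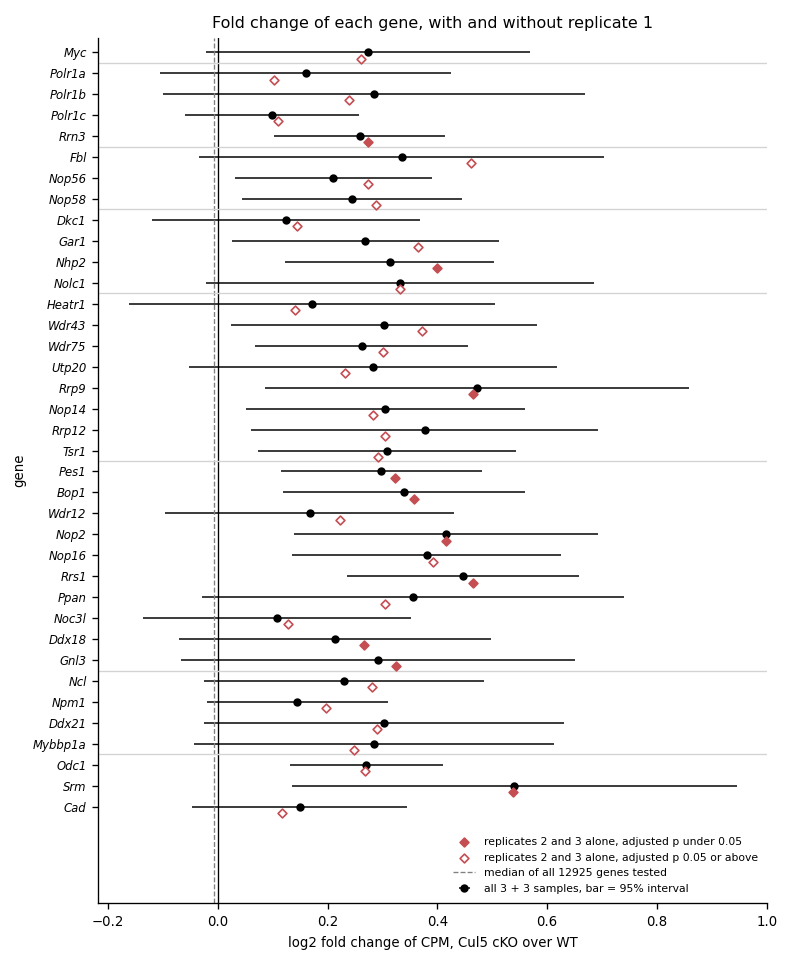
Log2 fold change of each of the 37 genes (rows, in the order of their roles). Circles with bars give the fit of all 6 samples with its 95% confidence interval, and diamonds the fit of replicates 2 and 3 alone, filled for the 10 genes with an edgeR adjusted p under 0.05; the dashed line is the median of all genes, -0.01.

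Myc (chr15:61985391-61990374 in GRCm38, GENCODE vM21) had 250.1, 332 and 303 CPM in WT and 308, 385 and 377 CPM in Cul5 cKO. Cul5 cKO replicate 1 lay between the WT samples, so the groups overlapped, while the other two Cul5 cKO samples lay above all of WT. The log2 fold change was 0.27 ± 0.13 (SE, 95% interval -0.02 to 0.57), with an unadjusted p of 0.065 and an adjusted p of 0.27 in edgeR's quasi-likelihood test. With replicate 1 as a term it was 0.27 with an edgeR adjusted p of 0.024, and in replicates 2 and 3 alone 0.26 with an adjusted p of 0.062. It was 0.17 without WT replicate 1 and 0.37 without WT replicate 2. The assignment of Myc reads to transcripts differed in the shallow library: Myc-202 took 0.01% of the Myc counts in WT replicate 3 and between 16.9% and 21.0% in the other samples, and Myc-206 took 28.0% there and at most 6.25% elsewhere. The sum over transcripts is what was tested.

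Promoter windows, running from 250 bases before the RefSeq transcription start to 50 bases after it in GRCm38.p6, were given for 30 of the 37 genes, and 7 of these 30 genes (23.3%) held CACGTG, which reads the same on both strands. These were Rrn3, Wdr43, Utp20, Tsr1, Pes1, Nop2 and Mybbp1a. Of all 27025 genes with a window, 8.09% held it. The windows of the 37 genes are also richer in CpG, with a median of 21 CpG per window and a lowest count of 9 against a median of 7 over all windows. Among the genes with a window of 9 CpG or more, 11.7% held CACGTG. No window was given for Myc, Fbl, Rrp12, Bop1, Rrs1, Npm1 and Srm, so these were not searched. Bop1, Rrs1 and Srm are among the genes called in replicates 2 and 3 alone. Of the 7 genes that held CACGTG, Rrn3, Pes1 and Nop2 were also called there, and their windows are shown for that reason. Each runs from 250 bases before the RefSeq start to 20 bases after it on the + strand, with CACGTG in capitals.
Rrn3, chr16:13780449-13780718: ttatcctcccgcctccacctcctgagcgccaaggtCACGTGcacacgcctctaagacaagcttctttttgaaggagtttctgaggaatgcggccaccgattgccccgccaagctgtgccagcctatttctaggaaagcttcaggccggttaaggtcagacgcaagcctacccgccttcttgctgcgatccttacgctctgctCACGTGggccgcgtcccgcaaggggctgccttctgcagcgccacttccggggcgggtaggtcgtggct
Pes1, chr11:3963725-3963994: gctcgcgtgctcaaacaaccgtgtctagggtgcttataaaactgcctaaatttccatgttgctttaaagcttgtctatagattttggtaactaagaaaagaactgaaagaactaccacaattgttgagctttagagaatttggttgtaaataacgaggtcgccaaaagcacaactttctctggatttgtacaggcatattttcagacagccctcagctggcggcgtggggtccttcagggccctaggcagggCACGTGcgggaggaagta
Nop2, chr6:125131633-125131902: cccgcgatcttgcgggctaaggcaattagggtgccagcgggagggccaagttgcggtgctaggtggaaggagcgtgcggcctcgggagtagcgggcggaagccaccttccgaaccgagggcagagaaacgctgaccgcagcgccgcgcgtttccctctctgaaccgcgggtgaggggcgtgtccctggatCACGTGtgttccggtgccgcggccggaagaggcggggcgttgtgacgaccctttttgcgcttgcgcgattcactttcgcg
The Rrn3 window held the letters at 215 and again at 48 bases before the start, the Nop2 window 60 bases before it, and the Pes1 window from the third base after it. A match of letters is not evidence of binding, which was not measured.

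Among the RNA polymerase I genes, Rrn3, the factor that brings the polymerase to the ribosomal RNA gene promoter, stood apart between the groups. Rrn3 (chr16:13780708-13814839) had 124, 130 and 129 CPM in WT and 145, 151 and 162 CPM in Cul5 cKO. All 3 Cul5 cKO samples lay above all WT samples, with a log2 fold change of 0.26 ± 0.07 (SE, edgeR adjusted p = 0.11) and 0.27 in replicates 2 and 3 alone (edgeR adjusted p = 0.0496). Polr1a, the catalytic core subunit, had 129, 173 and 150 CPM in WT and 157, 168 and 181 CPM in Cul5 cKO. Here the groups overlapped, and the log2 fold change was 0.16 ± 0.11 (SE, edgeR adjusted p = 0.46), with 0.059 when WT replicate 1 was left out and 0.28 when WT replicate 2 was. Polr1b, the other core subunit, had 0.28 (0.14 and 0.45 in the same leave-outs) and Polr1c, a subunit shared with RNA polymerase III, had 0.10 on the same scale, each with overlapping groups.

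The box C/D particles add methyl groups to ribosomal RNA. Fbl, their methyltransferase, had 200.3, 206 and 134 CPM in WT and 210.4, 227 and 248 CPM in Cul5 cKO, with WT replicate 3 far under the other samples. The log2 fold change was 0.34 ± 0.16 (SE, edgeR adjusted p = 0.28), and without WT replicate 3 it was 0.17. A transcript of Tulp4 is 99.6% identical to Fbl over 690 bases on the opposite strand, and Tulp4 was highest in WT replicate 3, at 211 CPM, and ran from 143 to 187 CPM elsewhere. The 2 genes summed had 344, 382 and 345 CPM in WT and 371, 414 and 408 CPM in Cul5 cKO, so that the groups overlapped and WT replicate 3 was no longer apart. The scaffold proteins Nop56 and Nop58 had log2 fold changes of 0.21 and 0.24, and their groups did not overlap (edgeR adjusted p = 0.18 and 0.17).

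The box H/ACA particles turn uridine in ribosomal RNA into pseudouridine. Dkc1, their pseudouridine synthase, had 184, 221 and 203 CPM in WT and 194, 226 and 243 CPM in Cul5 cKO. The groups overlapped, and the log2 fold change was 0.12 ± 0.10 (SE, edgeR adjusted p = 0.53), with 0.054 in the absence of Cul5 cKO replicate 3 and 0.21 in that of Cul5 cKO replicate 1. Nhp2, a core protein of the particle, had 128, 127 and 122 CPM in WT and 140, 161 and 168 CPM in Cul5 cKO. These groups did not overlap, with a log2 fold change of 0.31 ± 0.08 (SE, edgeR adjusted p = 0.11) in all samples and 0.40 in replicates 2 and 3 alone (edgeR adjusted p = 0.024). Gar1, a further core protein, had a log2 fold change of 0.27 and Nolc1, which helps to assemble these particles, 0.33, both with overlapping groups. Nolc1 is a case where the way counts are summed decides the value. In the deposited gene-level table its log2 fold change was 1.55. Its log2 CPM there differed from those of the summed counts by -5.22 to -11.5. They were 2.80, 2.20 and -3.21 in WT and 1.71, 2.56 and 2.19 in Cul5 cKO, so the 1.55 rests on WT replicate 3, the shallow library. The transcript Nolc1-201 held between 0 (in WT replicate 3) and 2.42% of the gene's counts.

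The small subunit assembly factors had a median log2 fold change of 0.30, with all 8 above 0. Groups did not overlap for 3 of 8 (Wdr75, Rrp12 and Tsr1), against 14% of all genes higher without overlap. Heatr1, which is needed for early processing of the precursor, had 183, 260 and 222 CPM in WT and 215, 258 and 275 CPM in Cul5 cKO. Its WT samples spread more widely than the Cul5 cKO samples, and the log2 fold change was 0.17 ± 0.14 (SE, edgeR adjusted p = 0.53), with 0.048 when WT replicate 1 was left out and 0.31 when WT replicate 2 was. Rrp9, a protein of the U3 snoRNP that starts small subunit assembly, had 70.8, 97.6 and 89.8 CPM in WT and 97.2, 118 and 142 CPM in Cul5 cKO. Cul5 cKO replicate 1 fell just under WT replicate 2, and the log2 fold change was 0.47 ± 0.17 (SE, edgeR adjusted p = 0.17) in all samples and 0.46 in replicates 2 and 3 alone (edgeR adjusted p = 0.045). The other members of the group, Wdr43, Wdr75, Utp20, Nop14, Rrp12 and Tsr1, had log2 fold changes between 0.26 and 0.38. Tsr1 shares 621 bases on the opposite strand with Srr, whose counts came to 8.65% of those of Tsr1.

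Of the 10 large subunit assembly factors, the largest group, 6 were called as higher in replicates 2 and 3 alone, against 4.38% of all genes. Pes1, Bop1 and Wdr12 form 1 complex, PeBoW, that large subunit maturation needs. Pes1 had 184, 205 and 183 CPM in WT and 217, 239 and 248 CPM in Cul5 cKO, and Bop1 had 156, 184 and 165 CPM in WT and 190.5, 222 and 226 CPM in Cul5 cKO. For both genes all Cul5 cKO samples lay above all WT samples. The log2 fold change was 0.30 ± 0.08 (SE, edgeR adjusted p = 0.11) for Pes1 and 0.34 ± 0.09 (SE, edgeR adjusted p = 0.12) for Bop1, and in replicates 2 and 3 alone 0.32 and 0.36 (edgeR adjusted p = 0.049 and 0.038). Wdr12, the third protein, had 0.17 with overlapping groups. A Vmn1r88 transcript is 97.2% identical to Wdr12 over 1377 bases and held counts worth 26.3% of those of Wdr12, so its value is uncertain.

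Rrs1, a large subunit assembly factor, had the lowest adjusted p of the 37 genes. It lies on chr1:9545408-9547455 and had 69.4, 79.2 and 75.4 CPM in WT and 91.1, 105 and 109 CPM in Cul5 cKO. The lowest Cul5 cKO sample lay above the highest WT sample, with a log2 fold change of 0.45 ± 0.09 (SE, 95% interval 0.23 to 0.66, edgeR adjusted p = 0.070). In replicates 2 and 3 alone it was 0.46 (edgeR adjusted p = 0.018), and without Cul5 cKO replicate 1, the lowest of its group, 0.52 (edgeR adjusted p = 0.048). Without WT replicate 1 it was 0.39, and no other leave-out called Rrs1. It was called in 6 of 15 alternative fits. Nop2, a methyltransferase of large subunit ribosomal RNA whose window is shown above, had 136, 171 and 161 CPM in WT and 180.3, 214 and 230 CPM in Cul5 cKO. These groups did not overlap either, and the log2 fold change was 0.42 ± 0.12 (SE, edgeR adjusted p = 0.12), with 0.41 in replicates 2 and 3 alone (edgeR adjusted p = 0.028).

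Ddx18, an RNA helicase of the nucleolus, had 137, 159 and 157 CPM in WT and 145, 184 and 195 CPM in Cul5 cKO. Replicate 1 of Cul5 cKO lay under 2 of the WT samples, and the log2 fold change was 0.21 ± 0.12 (SE, edgeR adjusted p = 0.36) in all samples and 0.27 without replicate 1 of either genotype (edgeR adjusted p = 0.049). Gnl3, the GTPase nucleostemin, had 132, 169 and 165 CPM in WT and 151, 201.3 and 217 CPM in Cul5 cKO. It showed the same order, with 0.29 ± 0.15 (SE, edgeR adjusted p = 0.32) on the log2 scale and 0.32 in replicates 2 and 3 alone (edgeR adjusted p = 0.039). In the deposited gene-level table its log2 fold change was 0.94. Gnl3, Nolc1 and Polr1a were the 3 genes whose log2 CPM in that table lay more than 0.5 from the summed counts (median over samples), and the other 34 lay between -0.04 and 0.16. The transcript Gnl3-201 took 16.0% of its counts in WT replicate 3 and between 56.9% and 64.8% in the other samples. The remaining genes of the group were Nop16 (0.38, groups without overlap), Ppan and Noc3l (0.36 and 0.11, groups overlapping).

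Ncl (nucleolin) and Npm1 (nucleophosmin) are abundant proteins of the nucleolus with several roles in ribosome assembly. Ncl had 1699, 1955 and 1832 CPM in WT and 1839, 2134 and 2461 CPM in Cul5 cKO. Cul5 cKO replicate 1 lay within the range of WT, and the log2 fold change was 0.23 ± 0.11 (SE, edgeR adjusted p = 0.28), with 0.12 in the absence of Cul5 cKO replicate 3 and 0.33 in that of Cul5 cKO replicate 1. Npm1 had 0.14 without overlap between groups, and the helicase Ddx21 and Mybbp1a, a nucleolar protein that binds Myb, had 0.30 and 0.28 with overlap.

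The polyamine enzymes held the largest log2 fold change of the 37 genes and the smallest SE. Odc1 (chr12:17544794-17551505), the rate-limiting enzyme of polyamine synthesis, had 373, 406 and 384 CPM in WT and 453, 464 and 486 CPM in Cul5 cKO. The groups did not overlap, with a log2 fold change of 0.27 ± 0.06 (SE, edgeR adjusted p = 0.086), 0.27 in replicates 2 and 3 alone (edgeR adjusted p = 0.051) and a DESeq2 adjusted p of 0.016. Srm (chr4:148591503-148594993), spermidine synthase, had 189, 278 and 239 CPM in WT and 274, 359 and 394 CPM in Cul5 cKO. Cul5 cKO replicate 1 lay just under WT replicate 2, and the log2 fold change was 0.54 ± 0.17 (SE, 95% interval 0.14 to 0.95, edgeR adjusted p = 0.15), with 0.54 in replicates 2 and 3 alone (edgeR adjusted p = 0.030). Cad, which catalyzes the first steps of pyrimidine synthesis, had 0.15 with overlapping groups.

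Levels can be compared between genes only per length, as TPM. Npm1 had the highest TPM of the 37 genes, 2467 ± 127 in WT and 2563 ± 157 in Cul5 cKO (SD, n = 3), followed by Ncl with 743 ± 70.1 and 838 ± 101. Nop56 and Nop58, which sit in each box C/D particle together with Fbl, came next, with 554 ± 93.2 and 381 ± 29.8 TPM in WT, and Fbl had 253 ± 62.8 TPM. Myc ranked at place 9 of 37, with 228 ± 40.4 TPM in WT and 266 ± 30.7 in Cul5 cKO. The box H/ACA core proteins among the 37 genes had 216 ± 5.15 (Nhp2), 195 ± 37.4 (Dkc1) and 188 ± 42.6 TPM (Gar1) in WT. These lay within the SDs of Dkc1 and Gar1. In Cul5 cKO they had 257 ± 17.9 (Nhp2), 191 ± 28.0 (Dkc1) and 240 ± 20.6 TPM (Gar1). Nop10, a core protein of the particle outside the 37 genes, lay lower, at 134 ± 5.14 TPM in WT and 150 ± 7.56 in Cul5 cKO. The RNA polymerase I genes among the 37 lay lower, between 44.6 and 74.2 TPM as means of all 6 samples. The 12 other RNA polymerase I genes, outside the 37, ran from 16.4 to 177 TPM. Noc3l was the lowest of the 37 genes at 18.3 TPM. TPM depend in part on which transcript the reads were assigned to. For Gnl3 and Cad, WT had SDs of 65.7 and 63.9 TPM, against 28.5 and 3.64 TPM in Cul5 cKO. The cause of these spreads was not tested. Unlike the fitted levels, mean TPM was lower in Cul5 cKO than in WT for Cad, Dkc1, Polr1c and Gnl3. The WT means were 175, 195, 75.7 and 194.4 TPM, and those of Cul5 cKO 149, 191, 72.8 and 193.5 TPM. For the rest of the 37 genes mean TPM was higher in Cul5 cKO.

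**Figure D4:**
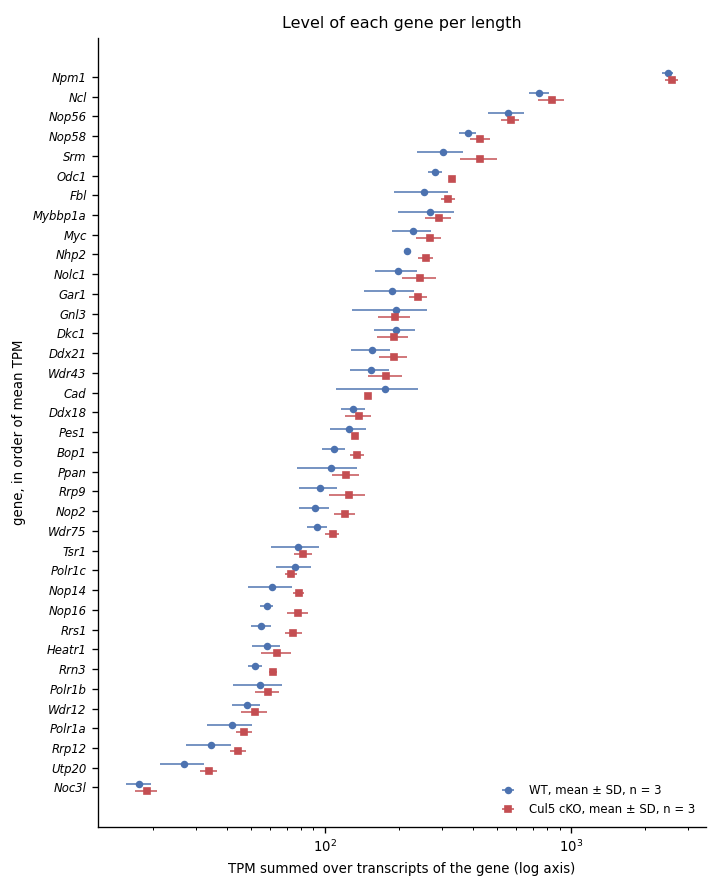
TPM (log axis, transcripts of a gene summed) of the 37 genes in WT (blue circles) and Cul5 cKO (red squares), as means of 3 samples with their SD as bars, in the order of the mean over all samples. The order runs from Npm1, with a mean of 2515 TPM, to Noc3l at 18.3 TPM.

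The partners and antagonists of Myc differed in both directions. Of 12 genes of the Myc network 10 were tested (Mycn and Mycl were too low), and 3 were higher and 7 lower in Cul5 cKO, with a median log2 fold change of -0.04 and none called. Max, with which Myc binds DNA, had 105, 117 and 116 CPM in WT and 87.0, 97.5 and 91.3 CPM in Cul5 cKO. Max thus lay lower in each Cul5 cKO sample than in any WT sample, with a log2 fold change of -0.29 ± 0.08 (SE, edgeR adjusted p = 0.11). Max was called as lower in 3 of 15 alternative fits, among them replicate 1 as a term (edgeR adjusted p = 0.017) and replicates 2 and 3 alone (edgeR adjusted p = 0.040). Mxd1, a repressor that competes with Myc for Max, had 33.6, 43.8 and 37.2 CPM in WT and 21.0, 24.8 and 18.3 CPM in Cul5 cKO. It missed the threshold narrowly, with a log2 fold change of -0.84 ± 0.15 (SE, edgeR adjusted p = 0.051), and passed it in 8 of 15 alternative fits. Mnt, another such repressor, had -0.01 ± 0.26 (SE, edgeR adjusted p = 0.99).

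**Figure D5:**
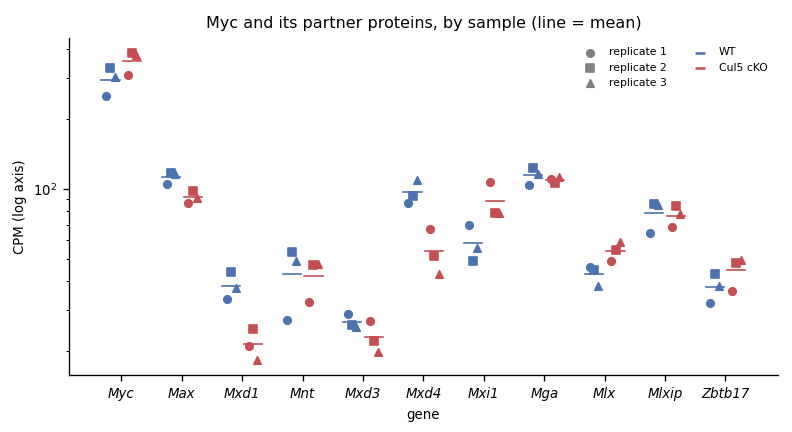
CPM (log axis) of Myc and of the 10 tested genes of the Myc network in each sample, WT in blue and Cul5 cKO in red, with symbols for the replicate number and a line at the mean. Mxd1 and Mxd4 lie lower in each Cul5 cKO sample than in any WT sample, and Mxi1 lies higher.

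Chosen after its values were seen, Mxd4, a repressor of the same family as Mxd1, had a log2 fold change of -0.84 ± 0.17 (SE, edgeR adjusted p = 0.069), while Mxi1, also of that family, had 0.60 ± 0.17 (SE, edgeR adjusted p = 0.12). Of 11 genes that act on the stability of the Myc protein, 6 were higher and 5 lower (median 0.04), and none was called. The ubiquitin ligase genes Fbxw7, Skp2 and Huwe1, which act on the Myc protein, had log2 fold changes of 0.14, 0.15 and -0.01 (edgeR adjusted p = 0.48, 0.64 and 0.96).

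Other genes of ribosome biogenesis, 98 in 4 lists, were likewise mostly higher without being called: 92 were higher and 6 lower, with a median log2 fold change of 0.20 and none called. Of these, 34 were higher and 2 lower without overlap between groups, where 14% of all genes were higher and 13.5% lower in this way. In replicates 2 and 3 alone, edgeR called 21 as higher and 0 as lower, against 4.38% and 4.45% of all genes. The large subunit list had 36 of 37 higher (median 0.26) and the small subunit list 36 of 36 (median 0.20). The RNA polymerase I list was more mixed, with 9 of 12 higher and a median of 0.07, and the snoRNP list had 11 of 13 higher and a median of 0.18. Ubtf and Tcof1, which act on the ribosomal RNA gene promoter, and Polr1e, a polymerase subunit, had 0.06, 0.07 and 0.13 (edgeR adjusted p = 0.61, 0.83 and 0.45). The snoRNP genes Nop10, Snu13 and Naf1 had 0.19, 0.36 and 0.20 (edgeR adjusted p = 0.19, 0.20 and 0.15).

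The first 3 genes of the small subunit list, Wdr3, Utp15 and Nat10, had log2 fold changes of 0.16, 0.23 and 0.23 (edgeR adjusted p = 0.38, 0.25 and 0.40). Those of the large subunit list, Mdn1, Las1l and Nle1, had 0.07, 0.12 and 0.31 (edgeR adjusted p = 0.91, 0.31 and 0.36). The other polyamine genes were higher for 10 of 11, with a median of 0.14 and none called. Amd1 and Sms, which supply and use the aminopropyl donor of polyamine synthesis, and Sat1, which starts polyamine breakdown, had 0.13, 0.14 and 0.03 (edgeR adjusted p = 0.64, 0.34 and 0.88). The 11 genes of this list ran from -0.12 to 0.45, and Srm, whose groups overlapped, had 0.54. The nucleotide synthesis genes were higher for 16 of 17, with a median of 0.16 and none called. Umps, Dhodh and Ctps, further enzymes of pyrimidine synthesis, had 0.19, 0.36 and 0.28 (edgeR adjusted p = 0.19, 0.12 and 0.18).

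Disturbed ribosome assembly is known to stabilize the p53 protein. Of 13 genes of p53, its regulators and targets, and Rpl5 and Rpl11, ribosomal proteins that bind Mdm2, 8 were higher and 5 lower (median 0.08). Their log2 fold changes ran from -0.87 to 1.0. Groups did not overlap for 3 higher and 2 lower genes, against 14% and 13.5% of all genes. In replicates 2 and 3 alone, edgeR called 3 as higher and 1 as lower, against 4.38% and 4.45% of all genes. Sesn2, a stress-induced inhibitor of mTOR signaling, was called as higher, the one call among the 160 pathway genes tested, a share near the 0.611% of all genes called as higher. Sesn2 had 15.9, 12.9 and 15.4 CPM in WT and 25.2, 24.4 and 27.0 CPM in Cul5 cKO. Its log2 fold change was 0.80 ± 0.11 (SE, edgeR adjusted p = 0.025), and the adjusted p rose to between 0.051 and 0.14 when any 1 sample other than WT replicate 1 was left out. In limma on the gene-level table it was 0.086. Trp53 and Mdm2, the p53 gene and that of its ubiquitin ligase, had -0.04 and 0.18 (edgeR adjusted p = 0.75 and 0.21). Cdkn1a, the cell cycle inhibitor p21, had 122, 67.6 and 77.4 CPM in WT and 234, 150 and 154 CPM in Cul5 cKO. Cdkn1a was highest in replicate 1 of each genotype, the reverse of most of the 37 genes, and its log2 fold change was 1.0 ± 0.26 (SE, edgeR adjusted p = 0.11). It was called as higher in 4 of 15 alternative fits, among them replicate 1 as a term (edgeR adjusted p = 0.00074) and replicates 2 and 3 alone (edgeR adjusted p = 0.0068).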

How the data were processed

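Poly-A RNA was sequenced on a BGISEQ-500 in reads of 50 bases. The authors assigned reads to GRCm38 transcripts with kallisto 0.46.2 and deposited estimated counts and TPM per transcript, and a gene-level table of log2 CPM normalized with edgeR 3.34.0; that table's own fold changes and p-values were not used. Estimated counts were summed over GENCODE vM21 genes (97.7% of transcripts matched), rounded, filtered with edgeR's defaults, scaled by TMM and tested with the quasi-likelihood test of edgeR 4.0.16 in R 4.3.3, Cul5 cKO against WT, with Benjamini-Hochberg adjustment. TPM were summed per gene and not tested. The fits were first tested on simulated data. Copies were sought with blastn 2.17.0 (95% identity over 300 bases): 9 of the 37 genes have one, and 2 have a copy with at least 10% of their counts. Whether counting used strand is not given in the sources used here.

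The genes, the lists and the term for replicate 1 were chosen with earlier results of these data known. The fit of replicates 2 and 3 alone sets the same replicate apart. Named were Cul5, the 37 genes, the first 3 genes of each of 9 pathway lists and any called one. Values of every sample are given for called genes, those called in replicates 2 and 3 alone and the first of each role. A total of 3 counts, the least taken as a level, is 0.76 CPM in WT replicate 3 and 0.13 CPM in the other samples. Alternatives were DESeq2 1.42.0, library size alone, a minimum of 10 counts per sample, all genes with a count, counts scaled from TPM, limma 3.58.1 on the gene-level table, a replicate block, replicate 1 as a term, replicates 2 and 3 alone, each sample left out, and unadjusted p.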

Additional observations from a re-analysis of the deposited data

How the results depend on the processing

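The 37 genes were higher in Cul5 cKO for 37 of 37 in 13 of 15 alternative fits, for 36 with counts scaled from TPM and for 35 in limma on the deposited gene-level table. The median log2 fold change ran from 0.21 to 0.37 when 1 sample was left out and from 0.24 to 0.30 in the other fits. The number of the 37 called was 0 in edgeR's quasi-likelihood test of all samples (18 at an unadjusted p under 0.05), 7 with DESeq2, 1 with no filter beyond 1 count, 9 with the replicate block, 20 with replicate 1 as a term, 10 in replicates 2 and 3 alone, and 0 to 1 when 1 sample was left out (Rrs1, without Cul5 cKO replicate 1). The calls over all genes moved as well. Of 12925 genes, 133 were called in the main test, 693 with DESeq2, 848 with the replicate block and 1688 with replicate 1 as a term. Calls came to 1153 of 13055 genes in replicates 2 and 3 alone and 228 of 22400 with no filter beyond 1 count. Without Cul5 cKO replicate 1 they came to 123 of 13339.

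Myc was called with the replicate block (log2 fold change 0.27, adjusted p = 0.047) and with replicate 1 as a term (0.27), and in no other fit. Cul5 kept its call throughout. Deviations from the group means of same-numbered samples correlated at 0.49, 0.27 and 0.03 over genes for numbers 1, 2 and 3, and WT replicate 2 (0.30 with Cul5 cKO replicate 3) and WT replicate 3 (0.17 with Cul5 cKO replicate 2) correlated best with another number, so the numbers were not taken to pair the samples.

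Of the 160 pathway genes tested, 1 was called. It was 16 with DESeq2, 2 with library size alone, 2 with at least 10 counts in every sample, 4 with no filter beyond 1 count, 0 in the gene-level table, 17 with the replicate block, 50 with replicate 1 as a term, 34 in replicates 2 and 3 alone, 69 at an unadjusted p under 0.05, and 0 to 5 when 1 sample was left out (5 without WT replicate 1). Of all genes, 133 were called: 693 with DESeq2, 228 with no filter beyond 1 count, 61 with counts scaled from TPM, 4 in the gene-level table, 848 with the replicate block, 1688 with replicate 1 as a term, 1153 in replicates 2 and 3 alone and 2753 at an unadjusted p under 0.05. Leaving out 1 sample gave 2 to 316, the lowest counts being 2 (WT replicate 2 or 3 absent), 3 (Cul5 cKO replicate 3 absent) and 45 (Cul5 cKO replicate 2 absent) and the highest 316 (WT replicate 1 absent). Of the 133, 79 were higher (59.4%), and of the 149 with library size alone 72 (48.3%). The cause of these shifts was not tested.

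Directions turned for genes with small differences. With counts scaled from TPM these were Cad (-0.17), Mnt (0.048), Huwe1 (0.064) and Trp53 (0.0025). In the gene-level table they were Polr1c (-0.026), Dkc1 (-0.0078), Ubtf (-0.014), Mnt (0.042) and Huwe1 (0.035). With no filter beyond 1 count they were Mnt (0.0051) and Huwe1 (0.012), with library size alone Sat1 (-0.017), with the replicate block Mnt (0.0057) and in replicates 2 and 3 alone Mdn1 (-0.033). When 1 sample was left out, Mnt ran from -0.28 to 0.22, Huwe1 from -0.080 to 0.039, Skp2 from -0.0013 to 0.29, Tcof1 from -0.059 to 0.20, Mdn1 from -0.18 to 0.27 and Sat1 from -0.013 to 0.11.

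Depth limits WT replicate 3, with 3944803 counts. The 37 genes vary together between samples: the median of their log2 differences from the WT mean had an SD of 0.15 between replicates of a genotype, with 3 samples a group.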
